A study of Mus musculus with 10 samples.

Results

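The cell cycle genes described here are 48 protein-coding genes, 27 expressed mainly around the G1/S transition and DNA replication and 21 expressed mainly in G2 and mitosis (G2/M). They were chosen by name from known function, with earlier results of these data known. They are 48 of the 52227 genes in the deposited count table. All 48 passed the filter on low counts. RNA-seq was performed on the cortical hem (CH), a signaling center at the dorsal midline of the telencephalon, of 5 wild-type and 5 *Lmx1a*-/- mouse embryos at embryonic day 13.5 (e13.5). The mutants carried the *dreherJ* (drJ) allele, a point mutation that inactivates the Lmx1a protein but leaves a transcript. Both genotypes were on a mixed C57Bl6, FVB and CD1 background and received no treatment. The study's methods name both sexes for the animals as a whole, and the sex transcripts of these embryos are given below. The CH was cut by laser from frozen sections, with its borders set by *Lmx1a* immunostaining of neighboring sections, and the pooled sections of 1 embryo made 1 library. The comparison asks whether RNA of replication genes and RNA of mitotic genes differed between *Lmx1a*-/- and wild-type CH, and whether they differed alike.

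A dividing cell copies its DNA once and then separates the copies. Around the G1/S transition, E2F factors switch on genes for origin licensing, the replicative helicase and nucleotide supply. In G2, the MuvB complex with B-Myb and FoxM1 switches on cyclins, kinases, spindle proteins and kinetochore proteins, and the anaphase-promoting complex later destroys many of these proteins. In the e13.5 telencephalon such transcripts come mostly from progenitors lining the ventricle, since neurons have left the cycle. In bulk RNA, fewer cycling cells and less RNA per cycling cell cannot be told apart.

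Promoter motifs occurred in different shares of the G1/S and G2/M members, without fully separating the phases. This description uses no measured level of the members. RefSeq promoter windows (GRCm38.p6, 250 bases before to 50 bases after the first listed start) were found for 40 of the 48 members, 23 of G1/S and 17 of G2/M. Both strands were searched for E2F motifs (TTTGGCGC, TTTCGCGC or TTTCCCGC), for the CCAAT box bound by NF-Y, and for the cell cycle genes homology region (CHR, TTTGAA) bound by MuvB complexes. No motif is contained in another. The E2F letters occurred in 7 of 23 G1/S windows (30.4%), 1 of 17 G2/M windows (5.88%) and 3.38% of the windows of 11410 tested coding genes. The CHR occurred in 13 of 17 G2/M windows (76.5%), 3 of 23 G1/S windows (13.0%) and 11.9% of all windows. The CCAAT box occurred in 16 of 17 G2/M windows (94.1%), 16 of 23 G1/S windows (69.6%) and 38.6% of all windows. A match is a description of letters and not a measured binding site.

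The 250 bases before the start are shown for 5 members on which the results below turn. *Tyms* (chr5:30073626-30073875, minus strand) and *Ube2c* (chr2:164769679-164769928, plus strand) passed the test. *Mcm7* (chr5:138171884-138172133, minus strand) had the highest fold change of the G1/S members. Its window lies wholly inside the GENCODE span of the gene (chr5:138164583-138172422), which begins further upstream than the RefSeq start used here. The windows of *Ube2c* and *Cenpe* reach a short way into the GENCODE spans of those genes. *Plk1* (chr7:122159185-122159434, plus strand) and *Cenpe* (chr3:135212313-135212562, plus strand) lay far from their means, in opposite directions, in a pair of mutant embryos. Capitals mark motif matches, with CCAAT also read as ATTGG, CHR as TTCAAA and E2F as GCGGGAAA on the other strand. In *Ube2c*, a pair of CCAAT matches on opposite strands overlaps, and the CHR lies near the start. The CHR match of *Plk1* lay after the start and is not shown. *Cenpe* had a CCAAT match close to its start and no CHR match, and *Tyms* had no match.
Tyms: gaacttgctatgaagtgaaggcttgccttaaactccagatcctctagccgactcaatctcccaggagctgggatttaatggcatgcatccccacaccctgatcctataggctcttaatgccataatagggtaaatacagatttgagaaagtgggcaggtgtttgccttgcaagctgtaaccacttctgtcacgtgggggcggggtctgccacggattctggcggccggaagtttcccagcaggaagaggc
Mcm7: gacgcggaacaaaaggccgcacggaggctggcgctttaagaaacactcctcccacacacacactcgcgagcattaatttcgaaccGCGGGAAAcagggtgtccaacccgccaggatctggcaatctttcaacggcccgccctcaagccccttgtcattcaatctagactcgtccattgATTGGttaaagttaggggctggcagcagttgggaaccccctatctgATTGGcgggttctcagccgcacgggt
Ube2c: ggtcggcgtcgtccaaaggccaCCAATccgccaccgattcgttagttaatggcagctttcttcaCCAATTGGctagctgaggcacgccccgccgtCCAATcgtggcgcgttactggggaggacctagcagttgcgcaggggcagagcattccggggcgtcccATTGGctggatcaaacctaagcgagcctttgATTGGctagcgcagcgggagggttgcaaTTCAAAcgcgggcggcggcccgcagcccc
Plk1: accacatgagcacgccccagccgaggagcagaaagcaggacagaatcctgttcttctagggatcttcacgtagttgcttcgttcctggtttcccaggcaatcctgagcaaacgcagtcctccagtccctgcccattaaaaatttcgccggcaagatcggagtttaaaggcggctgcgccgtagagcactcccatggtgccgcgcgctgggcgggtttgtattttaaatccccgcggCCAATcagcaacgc
Cenpe: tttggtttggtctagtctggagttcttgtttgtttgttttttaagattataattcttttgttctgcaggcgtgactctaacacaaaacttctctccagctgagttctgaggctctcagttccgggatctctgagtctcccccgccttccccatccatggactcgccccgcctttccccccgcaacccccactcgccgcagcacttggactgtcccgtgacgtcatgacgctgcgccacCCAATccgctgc

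**Figure D1:**
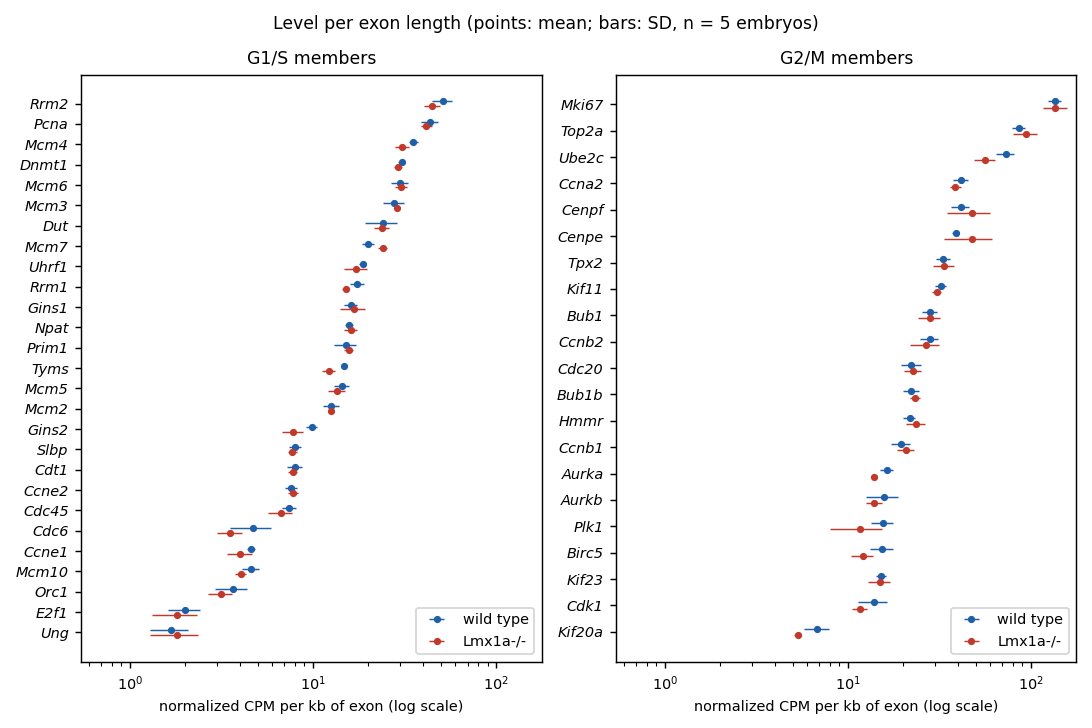
Normalized CPM per kilobase of exon, on a log axis, for the 27 G1/S members (left) and 21 G2/M members (right); points are means and bars SD of 5 embryos per genotype. Mki67 was the highest member at 135 in wild type and Ung the lowest at 1.68, and the genotypes lay close together for most members.

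Before any comparison of genotypes, the levels spanned a wide range, and the highest members belonged to G2/M. CPM denotes counts scaled to a common library size. Compared as CPM per kilobase of exon in wild-type CH, the chromosome surface protein gene *Mki67* was highest at 135 ± 11 (SD, n = 5), followed by the DNA-untangling enzyme gene *Top2a* at 86.1 ± 6.9 and the ubiquitin-conjugating enzyme gene *Ube2c* at 73.0 ± 8.3. *Top2a* and *Ube2c* overlapped within their SDs. Next in order within G2/M were *Ccna2*, *Cenpf* and *Cenpe*, also overlapping, at 41.5 ± 4.1, 41.3 ± 4.8 and 38.9 ± 1.8 per kilobase. With the longest transcript as the length, *Top2a* stood at 149 per kilobase and above *Mki67*. Among G1/S members, the ribonucleotide reductase subunit *Rrm2* was highest at 51.4 ± 6.4 per kilobase, and *Pcna*, the sliding clamp of the replication fork, followed at 43.7 ± 4.6, within the SDs. The helicase subunit *Mcm4* came next at 35.5 ± 2.0. The lowest members were the uracil-removing enzyme gene *Ung* at 1.68 ± 0.40 and the regulator *E2f1* at 2.01 ± 0.40 per kilobase. The median was 14.7 per kilobase for G1/S and 22.3 for G2/M members. The member with the fewest counts, *E2f1*, had at least 80 counts in every library and 164.8 on average.

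Library totals ranged from 19145952 to 36462780 counts. Of 21664 genes tested with edgeR's quasi-likelihood test, 870 passed a false discovery rate (FDR) of 0.1, which was 4.02%, with 2.29% lower and 1.72% higher in *Lmx1a*-/- CH. The 497 lower and 373 higher became 427 and 430 with scaling by library size only, and 66 and 93 with the choroid plexus covariate. *Lmx1a* RNA itself was 71.2 ± 18.2 CPM in wild type and 114 ± 21 in *Lmx1a*-/- CH (log2 fold change 0.68, SE 0.17, FDR = 0.0658), so that transcript level is no check of this allele. *Xist* was present in 4 of 5 wild-type embryos and in 0 mutants, while Y-linked transcripts were present in wild-type embryo 1 and all 5 mutants, so that sex and genotype were almost confounded. Hem markers were present in all libraries, with 5 of 10 lower and 1 higher. Of the markers of other cells, choroid plexus epithelium had 3 of 10 lower (summed level 87.6 to 437 CPM in wild type and 120 to 187 in mutants), Cajal-Retzius cells 3 of 8 lower and 1 higher (317 to 515 and 208 to 306 CPM, without overlap), and meninges and mesenchyme 3 of 8 lower. Neurons (10 genes), red blood cells (10), endothelium (6) and microglia (6) had 0 called, although the summed level of red blood cell markers did not overlap (643 to 1489 CPM in wild type and 268 to 581 in mutants). The part of these lists in the members' values was not tested, beyond the choroid plexus and neuron covariates.

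The test called 2 members, both lower in *Lmx1a*-/- CH, and which members passed depended on the settings. *Tyms* of G1/S (1 of 27) and *Ube2c* of G2/M (1 of 21) passed the test, 4.17% of the members, a share near the 4.02% of all tested genes. The mean was lower in the mutants for 31 members and higher for 17. At an unadjusted p under 0.05 there were 10 members (20.8%), 9 lower and 1 higher, beside 16.4% of all tested genes. The median log2 fold change was -0.07 for G1/S and -0.02 for G2/M members, beside -0.005 for all tested genes. The genotypes did not overlap for 4 members (8.33%), *Tyms*, *Mcm7*, *Ube2c* and *Kif20a*, and for 4.44% of all tested genes. DESeq2 called 6 members, adding *Birc5*, *Gins2* and *Kif20a* lower and *Mcm7* higher, but it called 1766 of all genes against 870 here. Upper quartile scaling also gave 2 calls, but 1 was *Mcm7*, higher, in place of *Tyms* (FDR = 0.102). The newer quasi-likelihood method of edgeR gave 3, adding *Mcm7*, and 1182 of all genes. With the *Xist* level or the mean level of the choroid plexus markers as a covariate, 0 members were called, and 36 and 159 of all tested genes. Only wild-type embryo 1 separated the *Xist* level from genotype. Over 15 alternatives other than leaving out 1 embryo, *Mcm7* went as low as 0.16 and *Gins2* reached -0.22, against 0.26 and -0.33. The fold changes of *Tyms* and *Ube2c* did not shrink with these covariates, while their SEs grew. *Tyms* had -0.31 (SE 0.13) with the *Xist* level and -0.27 (SE 0.11) with the choroid plexus level, against an SE of 0.073 without a covariate. *Ube2c* had -0.57 (SE 0.17) and -0.48 (SE 0.14), against -0.38 (SE 0.10). The medians were -0.16 for G1/S and -0.12 for G2/M members with the *Xist* level, and -0.12 and -0.07 with the choroid plexus level.

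**Figure D2:**
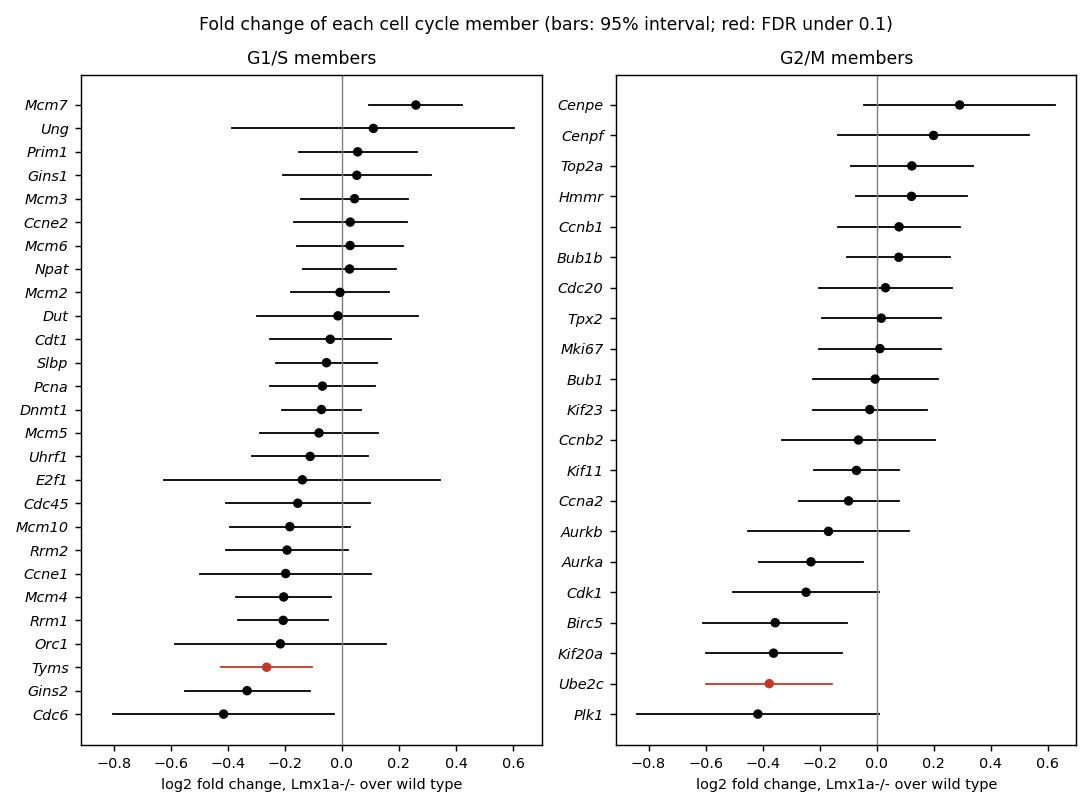
Log2 fold change (Lmx1a-/- over wild type) of each G1/S member (left) and G2/M member (right), with the 95% interval as a bar and members under an FDR of 0.1 in red. Only Tyms and Ube2c are red under this test, and the fold changes span -0.42 to 0.29.

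In the fit without a covariate, the intervals of most members excluded a 1.5-fold difference. Sex and genotype were almost confounded, so these intervals do not bound a difference due to genotype alone. For 40 of 48 members, 24 of G1/S and 16 of G2/M, the 95% interval of the fold change lay inside a 1.5-fold difference in either direction. That margin is wide, as every fitted fold change of a member lay inside it. The called gene *Tyms* was among the 40, with an interval of -0.42 to -0.11 on the log2 scale. The count therefore does not show that these members were unchanged. The median half-width of the intervals was 0.21 over the 48 members. The fold changes ran from -0.42 (*Plk1*) to 0.29 (*Cenpe*) on the log2 scale, with SEs between 0.064 and 0.23. *Mki67*, the usual marker of cycling cells, had a log2 fold change of 0.01 (95% interval -0.20 to 0.22), and *Pcna* one of -0.07 (-0.25 to 0.12). *Mcm2* had a log2 fold change of -0.01 (-0.18 to 0.16), *Top2a* 0.12 (-0.09 to 0.34), *Ccnb1* 0.08 (-0.14 to 0.29) and *Cdk1* -0.25 (-0.50 to 0.01). The directions of *Mki67*, *Mcm2*, *Ccnb1* and *Top2a* turned under some alternatives, and none of these 6 markers passed the test. Radial glia markers, which mark the progenitors in which these genes are active, had 1 of 9 called (*Vim*, higher). Their summed level was 1734 to 2497 CPM in wild type and 2764 to 3417 in mutants, without overlap. *Vim* held a large part of that sum, at 671 ± 121 CPM in wild type and 1223 ± 80 in mutants. Log2 fold changes of *Sox2*, *Hes1*, *Slc1a3* and *Prom1* were 0.003, -0.08, -0.14 and -0.11. Those of *Pax6*, *Nes*, *Hes5* and *Fabp7* were 0.37, 0.46, 0.38 and 0.35. Cortical neuroepithelium markers had 2 of 5 higher, with a summed level of 326 to 619 CPM in wild type and 585 to 779 in mutants. The part of these 2 lists was not tested.

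Nucleotide supply held the G1/S gene that passed. *Tyms* (chr5:30058202-30073617), which encodes thymidylate synthase, the enzyme that makes dTMP for DNA synthesis, was at 92.9, 87.5, 92.4, 88.6 and 86.7 normalized CPM in wild-type embryos 1 to 5. In *Lmx1a*-/- embryos 1 to 5 it was at 82.0, 70.5, 79.9, 68.9 and 71.8 CPM. Every mutant was below every wild-type embryo. Wild-type embryo 1, the one without *Xist*, was highest by a small margin over wild-type embryo 3, and 1 embryo cannot separate sex from genotype. The log2 fold change was -0.26 (SE 0.073, FDR = 0.0872), from 89.6 ± 2.8 to 74.6 ± 5.9 CPM (SD, n = 5). *Tyms* was called in 6 of 15 alternatives other than leaving out 1 embryo, and its log2 fold change was negative in all 15. Leaving out 1 embryo gave an FDR of *Tyms* between 0.0706 and 0.195, past the threshold in 2 of 10 cases, without mutant 1 or mutant 3.

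The large ribonucleotide reductase subunit *Rrm1*, which turns ribonucleotides into DNA precursors, was at 211, 177, 195, 172 and 203 CPM in wild-type and 159, 163, 161, 177 and 171 in *Lmx1a*-/- embryos. All 5 mutants were below the wild-type mean, but mutant 4 overlapped the lowest wild-type embryos. *Rrm1* had a log2 fold change of -0.21 (SE 0.073, FDR = 0.173), and with an offset for the GC content of transcripts it passed the test at -0.26 (FDR = 0.0756). *Rrm2*, the small subunit, had -0.19 (FDR = 0.362). The uracil-preventing enzyme gene *Dut* had -0.01 and *Ung* 0.11, with wide intervals (-0.30 to 0.27 and -0.38 to 0.60). Of the 5 genes of nucleotide supply and uracil removal, 4 means were lower and 1 was called.

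The helicase that opens the replication origin and the factors that load it had no called gene among 13, with 9 means lower and 4 higher. *Mcm7* (chr5:138164583-138172422), 1 of 6 subunits of the MCM ring, was measured at 95.4, 88.7, 95.4, 80.9 and 83.7 CPM across wild-type embryos and at 111, 98.5, 100.4, 111 and 111 in mutants. Every mutant was above every wild-type embryo. The log2 fold change of 0.26 (SE 0.076) had an FDR of 0.104, just short of passing, and the GC offset gave 0.30 with an FDR of 0.0556. *Mcm7* shares 7.25% of its exon bases with *Ap4m1* on the opposite strand, and the strand setting of the counting is not given in the sources used here.

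None of the other MCM subunits passed the test, and differences between subunits were not tested. *Mcm4* was measured at 134, 130, 131, 115 and 127 CPM across wild-type embryos and 112, 112, 126, 101 and 103 in mutants, with all 5 mutants below the wild-type mean and some overlap (log2 fold change -0.20, SE 0.078, FDR = 0.204). *Mcm2* had a log2 fold change of -0.01, *Mcm3* 0.04, *Mcm5* -0.08 and *Mcm6* 0.03. *Gins2*, a subunit of the GINS part of the helicase, was at 42, 39.9, 39.3, 37.1 and 43.9 CPM in wild-type and 38.1, 31.2, 34.2, 29.5 and 27.5 in mutant embryos, where only mutant 1 reached the wild-type range. Its log2 fold change was -0.33 (SE 0.10, FDR = 0.116), while its partner *Gins1* had 0.05. *Gins2* shares 67.3% of its exon bases with *Gse1* on the opposite strand, so its counts are uncertain.

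*Cdc6*, which loads the MCM ring onto origins, was at 28.2, 31.0, 24.1, 14.6 and 25.9 CPM in wild-type and 23.6, 16.2, 17.3, 18.8 and 16.8 in *Lmx1a*-/- embryos. Wild-type embryo 4 was the lowest of all 10, so the genotypes overlapped, and the log2 fold change of -0.41 (SE 0.18) had an FDR of 0.268. Its co-loader *Cdt1* had -0.04, the origin-binding subunit *Orc1* -0.22, the helicase activator *Cdc45* -0.15 and the initiation factor *Mcm10* -0.18, none called.

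The remaining G1/S members also lacked a call. The fork genes *Pcna* and *Prim1*, the latter encoding the primase subunit that starts each new strand, had log2 fold changes of -0.07 and 0.06. A processed pseudogene, *Pcna-ps2*, held 11674 counts beside 28097 for *Pcna* and had 0.02. The maintenance methylation genes *Dnmt1* and *Uhrf1* had -0.07 and -0.11. Of the genes that drive entry into S phase, *E2f1* had -0.14, and the cyclins *Ccne1* and *Ccne2* had -0.20 and 0.03. The histone mRNA genes *Slbp* and *Npat* had -0.05 and 0.03.

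**Figure D3:**
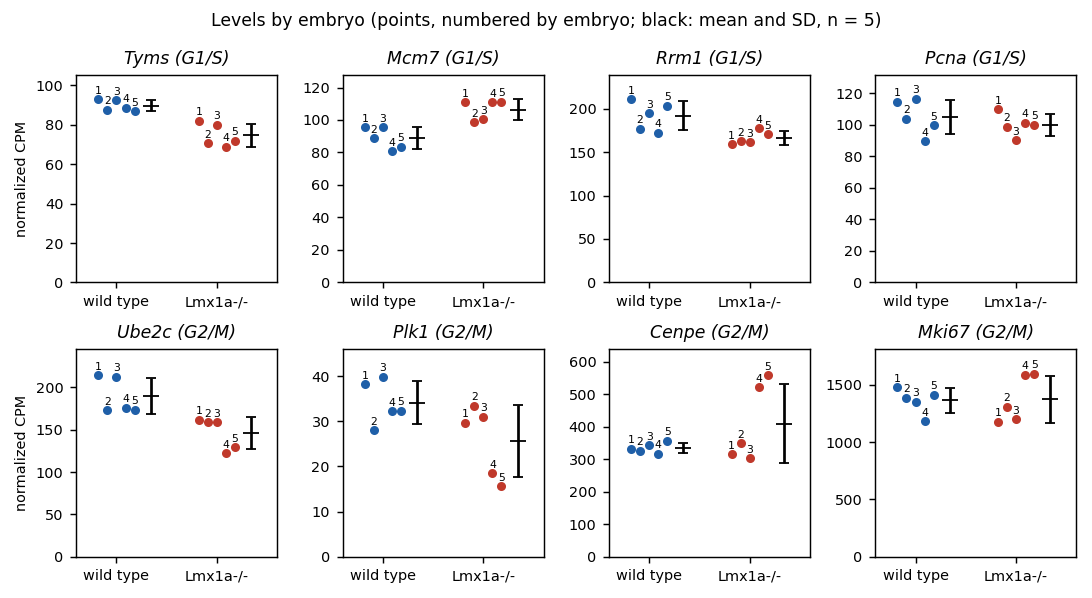
Normalized CPM in each embryo (points numbered 1 to 5 within a genotype, blue wild type, red Lmx1a-/-) for 4 G1/S members (top) and 4 G2/M members (bottom), with the mean and SD in black. Tyms and Ube2c do not overlap between genotypes, and in Plk1 and Cenpe mutants 4 and 5 lie far from mutants 1 to 3, in opposite directions.

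Among G2/M members, the called gene acts at the exit from mitosis. *Ube2c* (chr2:164769898-164778822), the ubiquitin-conjugating enzyme of the anaphase-promoting complex, was measured at 214, 173, 213, 176 and 173 CPM across wild-type embryos. In *Lmx1a*-/- embryos it was at 162, 159, 159, 122 and 129 CPM. Every mutant was below every wild-type embryo, with mutants 4 and 5 lowest. The mean went from 190 ± 21.7 to 146 ± 18.9 CPM (log2 fold change -0.38, SE 0.10, FDR = 0.0791). Without mutants 4 and 5 the log2 fold change was -0.24 and the FDR 0.367, and with the GC offset -0.31 and 0.105. Leaving out 1 embryo gave an FDR of *Ube2c* between 0.0798 and 0.195, past the threshold in 4 of 10 cases, without mutant 1, mutant 3, wild-type embryo 4 or wild-type embryo 5. *Ube2c* shares 22.8% of its exon bases with *Tnnc2* on the opposite strand, which had 0 counts. *Cdc20*, the activator of the same complex, had a log2 fold change of 0.03.

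Mitotic kinases and their partners had 4 of 5 means lower and 0 called. *Birc5*, which encodes survivin of the chromosomal passenger complex, was at 60.4, 42.6, 54.9, 47.6 and 57.5 CPM in wild-type and 39.4, 37, 50.9, 39.3 and 38.8 in mutant embryos. Only mutant 3 reached the wild-type range (log2 fold change -0.36, SE 0.12, FDR = 0.144). *Aurka*, the kinase of spindle poles, had -0.23 (SE 0.084, FDR = 0.186), and *Aurkb*, the kinase of the passenger complex, had -0.17 (FDR = 0.567). *Tpx2*, which activates Aurora A on the spindle, had 0.02.

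*Plk1*, the kinase that drives entry into mitosis and spindle assembly, was at 38.1, 28.1, 39.9, 32.3 and 32.3 CPM in wild-type and 29.7, 33.4, 31.0, 18.5 and 15.6 in *Lmx1a*-/- embryos. Mutants 1 to 3 lay within the wild-type range and mutants 4 and 5 far below it. Its log2 fold change was -0.42 (SE 0.20, FDR = 0.313), and -0.12 without those 2 embryos.

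*Cdk1*, the kinase of mitosis, was at 79.8, 55.1, 81.3, 57.5 and 68 CPM in wild-type and 65.4, 51.0, 54.5, 58.7 and 58.1 in *Lmx1a*-/- embryos, all 5 mutants below the wild-type mean and overlapping the lower wild-type embryos (FDR = 0.323). Its cyclin partners did not share a direction, with *Ccna2* at a log2 fold change of -0.10, *Ccnb2* at -0.06 and *Ccnb1* at 0.08. The spindle motor gene *Kif20a*, which acts in cytokinesis, was at 36.1, 27.7, 32.4, 25.7 and 26.2 CPM in wild-type and 22.2, 22.5, 23.4, 24.5 and 22.7 in mutant embryos. Every mutant was below every wild-type embryo (log2 fold change -0.36, SE 0.11, FDR = 0.117). *Kif20a* shares 29.3% of its exon bases with *Cdc23* on the opposite strand. The motors *Kif11* and *Kif23* had -0.07 and -0.02, and the spindle protein gene *Hmmr* had 0.12.

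The checkpoint and kinetochore genes had 3 of 4 means higher and 0 called. *Cenpe*, the kinetochore motor, was at 332, 326, 344, 317 and 357 CPM in wild-type and 317, 349, 304, 523 and 558 in *Lmx1a*-/- embryos. *Cenpf*, a large kinetochore protein gene, was at 652, 645, 602, 545 and 746 CPM in wild-type and 528, 664, 586, 939 and 946 in mutants. In both genes mutants 4 and 5 were above every other embryo and mutants 1 to 3 were not apart from wild type. Their log2 fold changes were 0.29 (SE 0.16, FDR = 0.382) and 0.20 (SE 0.16, FDR = 0.571), and -0.05 and -0.10 without mutants 4 and 5. The checkpoint kinase *Bub1* had -0.01 and *Bub1b*, which encodes BubR1, had 0.08.

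**Figure D4:**
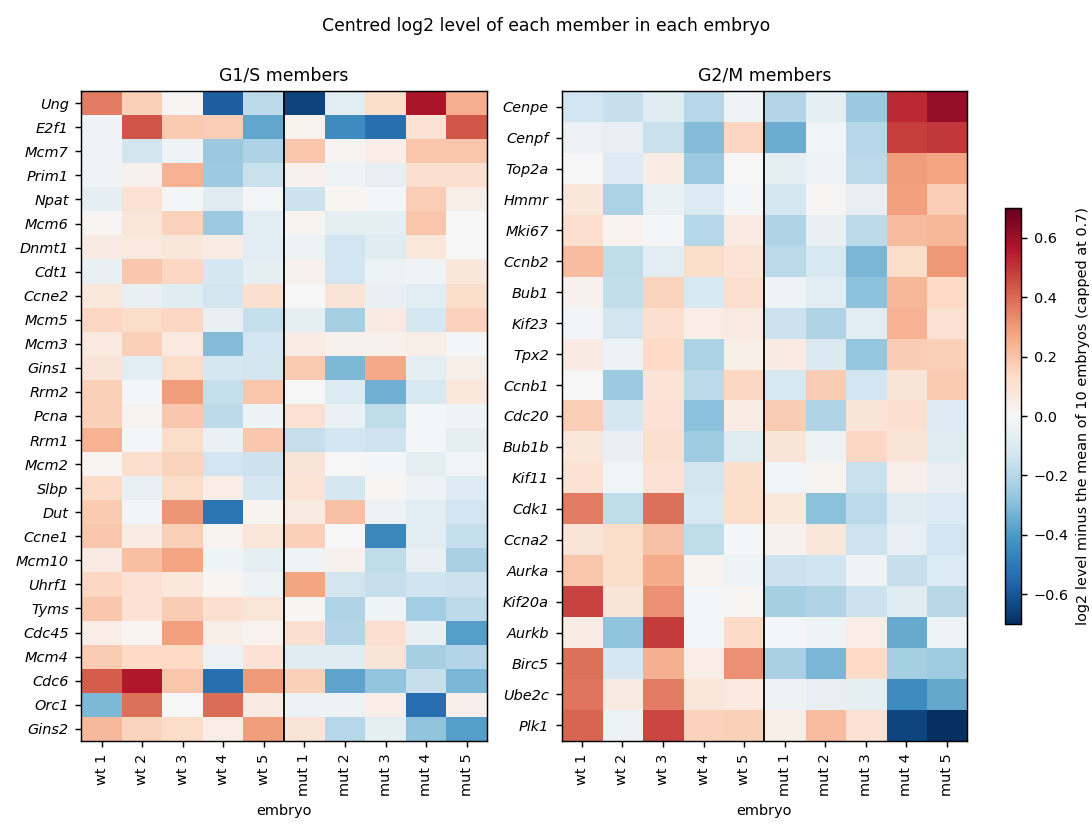
Log2 normalized level of each member in each embryo minus that gene's mean over the 10 embryos, in color from blue (lower) to red (higher) and capped at 0.7, ordered by the mean of mutants 4 and 5. In the G2/M panel mutants 4 and 5 run from Cenpe at 0.52 and 0.61 down to Plk1 at -0.64 and -0.89, an order that the sorting itself sets.

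In mutants 4 and 5 the G2/M members thus spread apart, some above and some below their means. The mean centered log2 level of these members was 0.04 and 0.02 in mutants 4 and 5. It was -0.10 to -0.07 in mutants 1 to 3 and -0.10 to 0.15 in wild type. Their summed level was 5653 and 5643 CPM in mutants 4 and 5 and at most 5023 in the other embryos. This description, and the choice of *Cenpe* and *Cenpf*, were made after the values were seen. The SD over the 21 G2/M members, each centered on its 10-embryo mean on the log2 scale, was 0.29 and 0.32 in mutants 4 and 5 and 0.09 to 0.18 in the other 8 embryos. *Cenpe*, *Cenpf* and *Top2a* were above their means by more than 0.25 in both embryos, and *Plk1* and *Ube2c* below theirs by as much. Of the G1/S members, *Ung* was above and *Gins2* below its mean by more than 0.25 in both. The share of all tested genes past this distance was not counted. Mutants 4 and 5 held the 2 highest of the 10 levels in 6 of 21 G2/M members (28.6%), *Cenpe*, *Cenpf*, *Hmmr*, *Mki67*, *Top2a* and *Tpx2*, in 0 of 27 G1/S members and in 7.11% of all tested genes. *Mki67*, for example, was at 1586 and 1597 CPM in these embryos, 1176 to 1310 in mutants 1 to 3 and 1184 to 1478 in wild type. They held the 2 lowest levels in *Plk1* and *Ube2c* (9.52%), in *Gins2* and *Mcm4* of G1/S (7.41%) and in 7.25% of all tested genes.

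The same embryos stood out in 64 other genes of G2 and mitosis, listed by function but with earlier results of these data known. There mutants 4 and 5 held the 2 highest levels in 14 genes (21.9%), among them the spindle gene *Aspm*, the condensin genes *Smc2* and *Smc4*, the motors *Kif4*, *Kif14*, *Kif15* and *Kif20b*, and the kinetochore scaffold *Knl1*, and the 2 lowest in *Hjurp* and *Kif18b* (3.12%). The SD over these 64 genes was 0.24 and 0.27 in mutants 4 and 5 and 0.14 to 0.19 in the others. Base composition and length split the 5 G2/M members past 0.25 in both embryos in the same way. The exons of *Cenpe*, *Cenpf* and *Top2a* had 42.9%, 43.3% and 43.4% GC and their longest transcripts were 7.91, 11.1 and 5.22 kb, and those of *Plk1* and *Ube2c* had 56.0% and 55.5% GC and 2.20 and 2.19 kb. The G1/S members past that distance, *Ung* above and *Gins2* below, lay between these values, with 48.3% and 53.4% GC and 3.10 and 3.90 kb. Other G2/M members varied. *Hmmr* and *Bub1*, with 41.8% and 41.0% GC, stood at 0.29 and 0.17 and at 0.23 and 0.14 in mutants 4 and 5. *Aurkb*, with 52.5% GC, stood at -0.35 and -0.03. *Cdc20*, with 55.6% GC, stood at 0.11 and -0.09 in mutants 4 and 5, and *Kif11*, with 42.2% GC, at 0.04 and -0.06.

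Over all genes with a mean above 10 CPM, the median level of genes under 42% GC stood 0.09 and 0.08 above the mean in mutants 4 and 5, and that of genes over 58% GC stood at -0.14 and -0.18. Genes with a transcript over 8 kb stood at 0.03 and 0.05 and those under 1 kb at -0.03 and 0.02. A trend on GC fitted to each library gave 0.07 and 0.06 for *Cenpe*, measured at 0.52 and 0.61, and -0.08 in both embryos for *Plk1*, measured at -0.64 and -0.89. With the GC offset the log2 fold change between genotypes was 0.23 for *Cenpe* and -0.35 for *Plk1*. The part of GC and length in the spread of these embryos was not tested beyond these values.

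**Figure D5:**
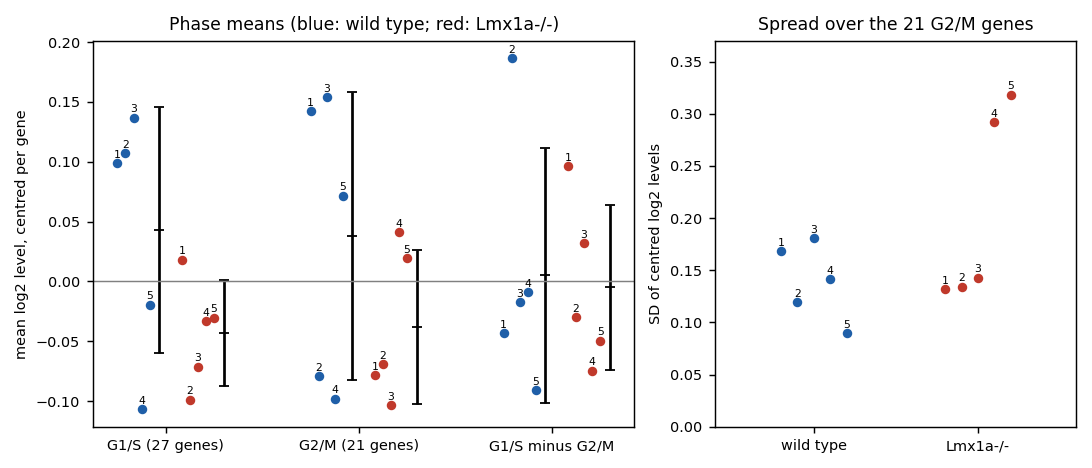
Left, mean centered log2 level of the 27 G1/S and 21 G2/M members and their difference in each embryo (numbered points, blue wild type, red Lmx1a-/-; black, mean and SD, n = 5); right, SD of the centered log2 levels over the 21 G2/M members. The phase means overlap between genotypes, and the SD is 0.29 and 0.32 in mutants 4 and 5 against 0.09 to 0.18 elsewhere.

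Set against each other, the phases did not separate the genotypes. The mean centered log2 level of G1/S members ran from -0.11 to 0.14 in wild-type and from -0.10 to 0.02 in *Lmx1a*-/- embryos, with wild-type embryo 4 the lowest of all. That of G2/M members ran from -0.10 to 0.15 in wild-type and from -0.10 to 0.04 in mutant embryos. The difference of G1/S minus G2/M per embryo was 0.01 ± 0.11 in wild type and -0.01 ± 0.07 in *Lmx1a*-/- CH (SD, n = 5), with full overlap. Wild-type embryo 2 had the highest difference at 0.19 and wild-type embryo 5 the lowest at -0.09. The summed level of the members was 1760 to 2078 CPM in wild-type and 1792 to 1910 in mutant embryos for G1/S, and 4220 to 5023 and 4273 to 5653 for G2/M.

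Of 120 other cell cycle genes, 6 were called and all 6 were lower in *Lmx1a*-/- CH, which was 5% beside 4.02% of all tested genes. Their median log2 fold change was -0.03 for 56 genes of G1/S and -0.01 for 64 genes of G2/M. *Cdc25b*, the phosphatase that activates Cdk1 at entry into mitosis, was at 24.2, 29.3, 21.8, 20.4 and 28.1 CPM in wild-type and 11.7, 13.5, 14.1, 18.6 and 18.2 in *Lmx1a*-/- embryos. Every mutant was below every wild-type embryo, and here mutants 4 and 5 were the highest mutants. The log2 fold change was -0.70 (SE 0.15, FDR = 0.0356), and -0.91 (FDR = 0.0240) without mutants 4 and 5.

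*E2f8*, an atypical E2F that represses G1/S genes, was at 53.9, 53.1, 47.2, 49.9 and 49.7 CPM in wild-type and 39.8, 37.4, 36.6, 45.6 and 35.2 in *Lmx1a*-/- embryos. The genotypes did not overlap (log2 fold change -0.38, SE 0.089, FDR = 0.0438), and without mutants 4 and 5 it kept an FDR of 0.0680. Its relative *E2f7* had -0.49 (FDR = 0.0766), with overlap. The other 3 called genes act in mitosis: *Hjurp*, the chaperone that loads the centromeric histone (-0.32, FDR = 0.0548), *Gtse1*, a microtubule-binding protein gene of G2 (-0.58, FDR = 0.0674), and *Cdca3*, a gene of mitotic entry (-0.41, FDR = 0.0732). With mutants 4 and 5 left out, 2 of the 6 were called, *Cdc25b* and *E2f8*. With the *Xist* level or the choroid plexus level as a covariate, 0 of the 120 were called, with larger SEs. With the *Xist* level the log2 fold changes were -0.65 for *Cdc25b*, -0.48 for *E2f8*, -0.58 for *E2f7*, -0.27 for *Hjurp*, -0.72 for *Gtse1* and -0.67 for *Cdca3*. With the choroid plexus level *E2f7* had -0.13 and the other 5 between -0.66 and -0.31.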

How the data were processed

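CH RNA was extracted after laser capture (Pico Pure kit) and libraries were made with a SMARTer kit. The authors checked reads with FastQC 0.11.8, trimmed them with Trimmomatic, aligned them to GRCm38 with STAR 2.7.1a and deposited the read count per gene from HTSeq 0.11.2, unfiltered. The strand setting is not given in the sources used here. Of 52508 table entries, 281 exact repeats were dropped. Genes that reached 10 counts in 3 or more libraries entered the test in edgeR 4.0.16 in R 4.3.3 (TMM scaling, trended dispersion, quasi-likelihood test with the legacy method, Benjamini-Hochberg FDR under 0.1 over all tested genes), with 5 embryos per genotype and no covariate. Normalized CPM are TMM-scaled; the SE is the log2 fold change divided by the square root of F. Positions and exon lengths are from GENCODE M21. The script was tested on simulated data.

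The members, the role groups, the 120 other cell cycle genes and the cell type markers were chosen with earlier results of these data known. The members named by rule were those called, and in each phase the 6 with the smallest p and the 3 highest per length. The rule also named 6 usual markers (*Mki67*, *Pcna*, *Mcm2*, *Top2a*, *Ccnb1*, *Cdk1*). Values for each embryo were given for only some of these. They were also given for *Cenpe* and *Cenpf*, which the rule did not name and which were picked after the values were seen. Alternatives were other scaling, filters and tests (DESeq2 1.42.0 among them), a replicate block, *Xist*, choroid plexus or neuron levels as covariates, an FDR of 0.05, and each embryo left out. A GC offset and the fit without *Lmx1a*-/- embryos 4 and 5 were added after seeing the data. No libraries were duplicates of each other.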

Additional observations from a re-analysis of the deposited data

Results flagged for a closer look

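In 6 groups of 5 embryos, the highest or lowest level of a member lay far from the other 4 by Dixon's test; chance gives such a gap in about 1 of 20 groups, and the levels of all 48 members were examined in both genotypes. In *Lmx1a*-/- embryo 4, *Orc1* was low at 8.06 CPM and *Aurkb* low at 33.8 CPM. In *Lmx1a*-/- embryo 1, *Uhrf1* was high at 92.5 CPM, and in *Lmx1a*-/- embryo 3, *Birc5* was high at 50.9 CPM. In wild-type embryo 3, *Cdc45* was high at 30.0 CPM, and in wild-type embryo 5, *Dnmt1* was low at 208.7 CPM.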

How the results depend on the processing

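The number of members called changed with most choices, and the cause was not tested. It was 0 with library size scaling, the *Xist* covariate, the choroid plexus covariate, an FDR of 0.05 or without mutants 4 and 5, 1 without a filter, with the likelihood ratio test or the neuron covariate, and 6 with DESeq2. Leaving out 1 embryo gave 0 to 4 members, 1 to 6 other cell cycle genes and 451 to 1059 of all genes; 0 members were called without wild-type embryo 1 or 2 or mutant 2, 4 or 5, and 4 without mutant 3. The 5 omissions that left 0 members took the other cell cycle genes to between 1 and 3 and all genes to between 451 and 578. Other cell cycle genes called were 3 with library size scaling, 0 with the *Xist* or choroid plexus covariate, 1 with the neuron covariate, 2 at an FDR of 0.05 and 2 without mutants 4 and 5. Of all genes, 1360 were called with the likelihood ratio test, 1766 with DESeq2, 36 with the *Xist*, 159 with the choroid plexus and 482 with the neuron covariate, 448 at an FDR of 0.05 and 309 without mutants 4 and 5. The medians with the *Xist* covariate were -0.16 (G1/S) and -0.12 (G2/M).

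Of the members named by rule, *Mcm2*, *Mki67*, *Ccnb1* and *Top2a* turned direction on the log2 scale. *Mcm2* was 0.00939 with upper quartile scaling, 0.00459 with library size scaling, 0.0080 with the GC offset and 0.0256 without mutants 4 and 5. *Mki67* was -0.11 with the *Xist* and -0.0187 with the neuron covariate, -0.0189 with the GC offset and -0.14 without mutants 4 and 5. *Ccnb1* was -0.00899 with the choroid plexus and -0.00553 with the neuron covariate, and *Top2a* was -0.0325 without mutants 4 and 5. With 1 embryo left out, *Mcm2* ran from -0.0479 to 0.0306 and *Mki67* from -0.0500 to 0.0618. Embryos sharing a number did not deviate together (correlations of -0.16 to 0.04), so the numbers do not pair them; with a replicate block, 1 member (*Ube2c*) and 601 genes were called. SEs near 0.1 and nearly confounded sex limit what small differences can show.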
